A study of Mus musculus with 43 samples.

Results

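Immediate early genes were followed across inguinal white adipose tissue, the subcutaneous fat depot of the mouse groin. The list held 10 genes: Fos, Fosb, Jun, Junb, Egr1, Egr3, Atf3, Ier2, Nr4a1 and Dusp1. Their Entrez gene numbers were looked up in 5 expression tables, each with 22622 gene numbers. Of the 10 genes, 7 had a row in every table, and Fos, Atf3 and Nr4a1 are not analysed here. The 7 measured genes were Fosb (gene 14282, mm10 chr7:19302696-19310118), Jun (gene 16476, chr4:95049036-95052222) and Junb (gene 16477, chr8:84976909-84978748), with Egr1 (gene 13653, chr18:34861207-34864956) and Egr3 (gene 13655, chr14:70077317-70082613), and Ier2 (gene 15936, chr8:84661331-84662852) and Dusp1 (gene 19252, chr17:26505591-26508472).

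Poly(A) RNA was sequenced from 43 samples in 9 groups, and the series asks whether beige adipocytes of the weaning period and those recruited by adult cold exposure arise by distinct routes. Wild-type C57BL/6J mice at postnatal day 28 (P28) were housed at 30 C (n = 4) or at 22 C (n = 4). Mice with the genotype TrkA-flox Th-cre (n = 4) were also P28 and at 22 C, and were set against the same 4 C57BL/6J samples, which carry neither allele. Th-cre acts in cells that have expressed tyrosine hydroxylase, such as sympathetic neurons, whose cell bodies lie outside the depot. Bcl6-flox Prx1-cre mice (n = 8) and Bcl6-flox mice without the recombinase (n = 7) were compared at P25 and 22 C. The same genotypes were compared at 9 weeks of age and 4 C, with 4 samples each, and both carry the floxed Bcl6 allele. Prx1-cre acts in mesenchyme, including the precursors of this depot, so Bcl6, a transcriptional repressor, is targeted in more than adipocytes. Finally, C57BL/6J mice of 9 weeks were housed at 4 C (n = 4) or 22 C (n = 4). No label says how long the housing lasted or whether the samples of a group were separate animals, so each p-value measures the spread between these samples.

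Immediate early genes are transcribed within minutes of a stimulus, without the need for new protein. Kinase cascades reach factors already bound at their promoters, such as SRF with its Elk partners and CREB, and the mRNAs are then degraded quickly. Fosb, Jun and Junb encode subunits of the dimeric transcription factor AP-1. Egr1 and Egr3 encode zinc finger transcription factors, Ier2 encodes a small nuclear protein, and Dusp1 encodes a phosphatase that switches off the MAP kinases upstream. In fat, noradrenaline from sympathetic nerves acts through cAMP and CREB, and tissue dissection and dissociation are also known to induce these genes.

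Promoter windows are shown because such signals can act through sequence elements in promoters. Promoters of 4 of the 7 genes are printed from the RefSeq table of build GRCm38.p6, each running from 250 bases before to 50 bases after the annotated start, on the minus strand. Capitals mark the cAMP response element TGACGTCA, its shorter core TGACG, or the variant AP-1 site TGACATCA known from the Jun promoter. The windows lie at chr4:95052173-95052472 for Jun, chr7:19309996-19310295 for Fosb, chr8:84978699-84978998 for Junb and chr17:26508423-26508722 for Dusp1.
Jun: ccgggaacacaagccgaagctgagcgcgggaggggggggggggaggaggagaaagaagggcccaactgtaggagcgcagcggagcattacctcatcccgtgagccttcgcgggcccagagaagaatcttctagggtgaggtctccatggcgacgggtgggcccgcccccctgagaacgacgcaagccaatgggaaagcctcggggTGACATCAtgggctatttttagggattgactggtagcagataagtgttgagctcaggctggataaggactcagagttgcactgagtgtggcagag
Fosb: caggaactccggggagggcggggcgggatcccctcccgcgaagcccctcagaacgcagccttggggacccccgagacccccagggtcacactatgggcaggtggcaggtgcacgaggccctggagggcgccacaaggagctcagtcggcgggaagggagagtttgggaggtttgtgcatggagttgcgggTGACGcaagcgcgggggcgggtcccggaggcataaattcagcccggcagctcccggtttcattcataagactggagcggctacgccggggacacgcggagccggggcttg
Junb: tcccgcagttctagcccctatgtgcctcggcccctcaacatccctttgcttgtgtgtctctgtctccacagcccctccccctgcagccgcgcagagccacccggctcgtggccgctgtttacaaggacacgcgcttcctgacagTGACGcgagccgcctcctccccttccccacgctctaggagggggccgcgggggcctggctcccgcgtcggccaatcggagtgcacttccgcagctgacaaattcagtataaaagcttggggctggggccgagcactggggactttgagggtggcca
Dusp1: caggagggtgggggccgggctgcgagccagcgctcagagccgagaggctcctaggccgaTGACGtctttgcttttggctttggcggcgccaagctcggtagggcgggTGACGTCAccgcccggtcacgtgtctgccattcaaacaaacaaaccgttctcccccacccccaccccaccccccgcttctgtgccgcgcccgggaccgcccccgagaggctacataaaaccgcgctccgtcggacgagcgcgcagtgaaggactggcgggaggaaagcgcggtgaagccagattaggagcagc
Both strands were searched. The Dusp1 window held the full element TGACGTCA with its first base 143 bases before the start, and a separate TGACG at 191 bases before it. The full element was found in 1.79% of 32851 promoter windows of the same length, and TGACG, which also lies within it, in 20.8%. TGACG began 60 bases before the start in Fosb and 106 bases before it in Junb. TGACATCA began 45 bases before the start in Jun, and 3.62% of all windows held it. Fosb also held the EGR-type sequence GCGGGGGCG, found in 2.91% of windows, beginning 50 bases before the start and left in lower case. Junb held TATAAA, found in 13.6% of windows, at its annotated start. The AP-1 sequence TGANTCA (7.81% of windows), the EGR sequence GCGTGGGCG (0.612%) and the CArG box bound by SRF (1.63%) had no match in these 4 windows. Windows of Egr1, Egr3 and Ier2 are not reported here, so these results do not cover those genes. These are matches of letters in a window, and no binding was measured.

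All values are counts that the authors normalized within a table, so a value may be compared between libraries of a table and not between genes, whose lengths differ. Library depth, estimated roughly from the size of the smallest steps in the values, was 3500000 to 6430000 reads at P28, 5000000 to 15800000 at P25, 16900000 to 30700000 in the 9-week Bcl6 table and 6270000 to 8860000 in the 9-week wild-type table. The Bcl6 total was higher in the libraries labelled Bcl6-flox Prx1-cre, at 1517 to 3329 against 454 to 1395 at P25 and at 9624 to 14493 against 1607 to 2529 at 9 weeks. A gene total does not show a deleted exon, so it does not check the labels. The 7 adipocyte markers with a row, Adipoq and Plin1 among them, summed to 36820 or more in every library. Markers of skeletal muscle and epithelium, which are not adipocyte genes, varied widely between libraries, and their values stand beside the results below. In bulk tissue, fewer cells of a type and less RNA per cell cannot be told apart.

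**Figure D1:**
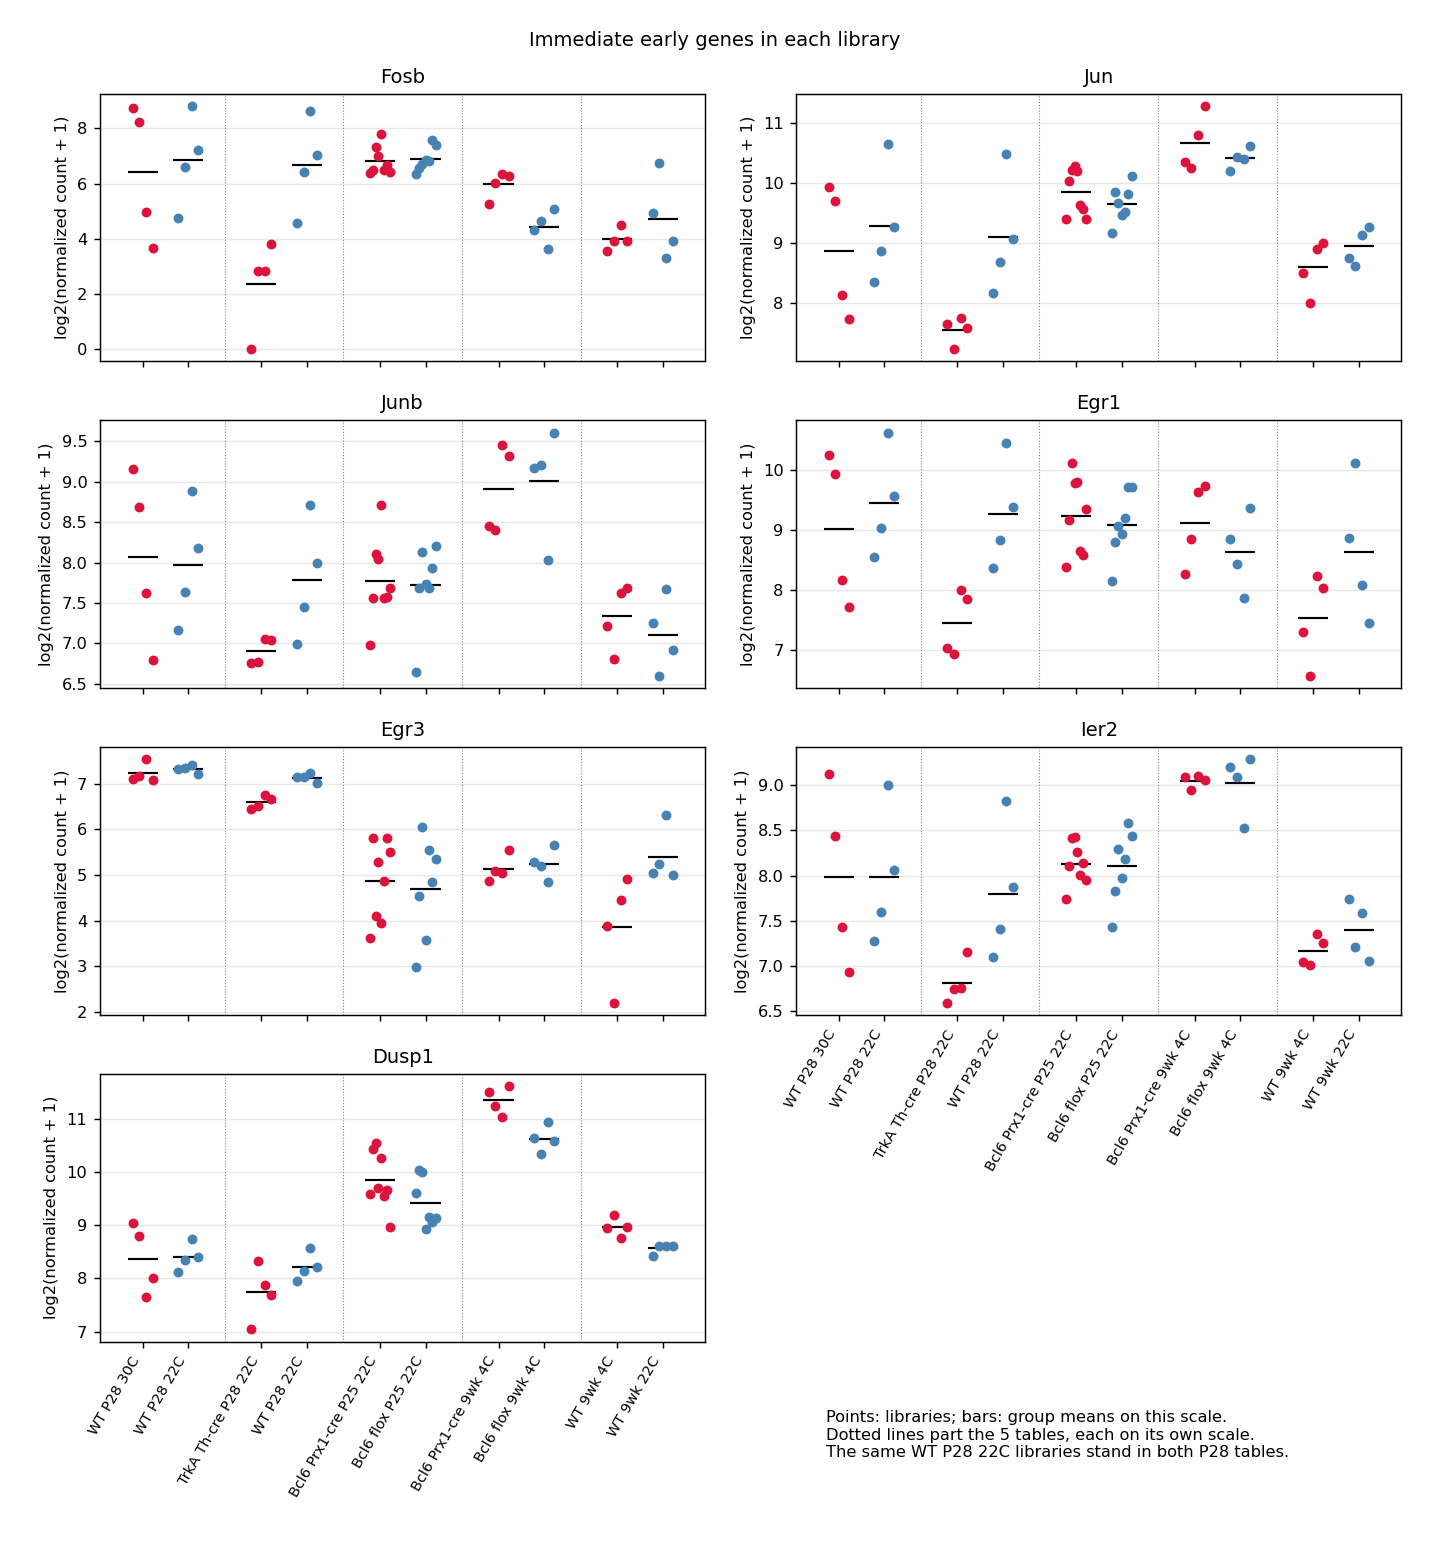
Values of each of the 7 immediate early genes as log2(normalized count + 1) (vertical axes) in every library of the 5 tables (horizontal axes), with bars for the group means. Red points are TrkA-flox Th-cre, Bcl6-flox Prx1-cre, 30 C or 4 C libraries, each left of its comparison group in blue, and the 4 wild-type P28 22 C libraries stand in both P28 tables. At P28 the wild-type libraries of 1 group lie far apart for Fosb, Jun, Junb, Egr1 and Ier2, and close together for Egr3.

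The comparison that called the most of these genes was that of sympathetic TrkA deletion at P28. Fosb, Egr1 and Egr3 were lower in TrkA-flox Th-cre fat than in wild-type fat (3 of 7 genes; 1.32% of 11899 tested genes were lower). All 7 genes had a negative log2 difference, with a median of −0.99 against −0.01 over all genes tested. The test was limma on log2(value + 1), with p-values adjusted over all tested genes by the method of Benjamini and Hochberg and called below 0.05. Of the 7, 6 had an unadjusted p below 0.05, as did 2280 of the 11899 tested genes (19.2%). Over the P28 libraries, deviations from the group mean of Fosb, Jun, Junb, Egr1 and Ier2 correlated at r = 0.828 to 0.977. Those of Egr3 did not follow them, with r no higher than 0.0833. Counts over the 7 genes are therefore not counts of independent results.

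Fosb, an AP-1 subunit, had normalized counts of 0, 6.06, 6.04 and 12.98 in the TrkA-flox Th-cre libraries, against 22.9, 83.8, 398 and 131 in the wild-type libraries. The highest TrkA-flox Th-cre library lay below the lowest wild-type library, and library 3 of the wild type was far above the other 3. The means were 6.27 ± 5.30 and 159 ± 165 (SD, n = 4 each), and the log2 difference was −4.31 ± 0.92 (SE, limma adjusted p = 0.0391). With a library at 0, the size of that difference depends on the pseudocount, and it ran from −5.00 to −3.52 as each library was left out. Its adjusted p was 0.0509 with a pseudocount of 0.5. Fosb reached the value of 10 required for testing in every wild-type library, but among TrkA-flox Th-cre libraries only in library 4 (12.98). It therefore passed the filter through the group in which it was higher. With no filter, Fosb was not called, and neither was any other of the measured immediate early genes.

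Jun had normalized counts of 199, 149, 213.5 and 190.3 in the TrkA-flox Th-cre libraries, against 286, 408, 1421 and 537 in the wild-type libraries. These groups did not overlap either, but the spread within the wild type was large, and the log2 difference of −1.55 ± 0.40 had an adjusted p of 0.0712. With weights per library it was 0.0321. Junb, the third AP-1 subunit, had 107, 108, 132 and 131 in the TrkA-flox Th-cre libraries, against 126, 173.5, 417 and 254 in the wild-type libraries. Library 1 of the wild type lay within the range of the TrkA-flox Th-cre libraries, and the difference of −0.88 ± 0.30 did not pass (adjusted p = 0.155).

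Egr1, which relays growth factor and cAMP signals to late genes, had 131, 122, 257 and 229 in the TrkA-flox Th-cre libraries, against 332, 458.5, 1399 and 669 in the wild-type libraries. The groups did not overlap, and the means were 185 ± 68.2 and 715 ± 477 (SD, n = 4 each). The log2 difference was −1.80 ± 0.41 (adjusted p = 0.0476), between −2.10 and −1.41 as each library was left out. Egr3, its paralogue, known from neurons and muscle spindles, had a much smaller spread. It had 85.7, 90.8, 107 and 101 in the TrkA-flox Th-cre libraries, against 140.1, 141, 151 and 129 in the wild-type libraries, so that both groups were tight and apart. Its means were 96.3 ± 9.81 and 140 ± 9.04, with a log2 difference of −0.54 ± 0.12 (adjusted p = 0.0387).

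Ier2 had 95.6, 107, 107 and 142 in the TrkA-flox Th-cre libraries, against 136, 168, 452 and 234 in the wild-type libraries, with 1 crossing pair and a difference of −0.99 ± 0.32 (adjusted p = 0.13). Dusp1, the MAP kinase phosphatase, had 131, 320, 236 and 207 in the TrkA-flox Th-cre libraries, against 245, 283, 380.4 and 295 in the wild-type libraries. Its groups overlapped, and the difference was −0.48 ± 0.24 (adjusted p = 0.309). In all, the groups of 4 of the 7 genes did not overlap, each lower in TrkA-flox Th-cre fat, where 5.57% of all tested genes had that pattern.

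The 3 calls lay close to the threshold. The number of the 7 genes called was 4 without wild-type library 1, 3 without TrkA-flox Th-cre library 4, 1 without wild-type library 3, and 0 without any of the other 5 libraries. The wild-type libraries of this table also took part in the comparison of 30 C with 22 C below, so the values of the 2 comparisons are not independent.

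Other cell types differed between the same groups. The macrophage marker sum was 7261 to 8917 in TrkA-flox Th-cre libraries, against 4106 to 5570 in wild-type libraries, and 5 of its 9 markers rose (C1qb, Csf1r, Itgam, Lyz2 and Mrc1). Muscle markers summed to 1121 to 5934 in TrkA-flox Th-cre libraries and 293 to 828.9 in wild-type libraries, with 2 of 9 up (Myh2 and Ttn). Thermogenic adipocyte markers summed to 1243 to 2595 in TrkA-flox Th-cre libraries and 2300 to 4141 in wild-type libraries, with 2 of 6 tested markers down (Ucp1 and Cox7a1). Schwann cell markers, carried by the glia of nerve bundles, summed to 1418 to 2174 in TrkA-flox Th-cre libraries and 2149 to 3679 in wild-type libraries, with 1 of 8 down (Cdh19). By limma, 9 of 9 macrophage, 9 of 9 muscle, 3 of 6 thermogenic and 8 of 8 Schwann cell markers had an unadjusted p below 0.05. So did 6 of 8 fibroblast progenitor and 5 of 8 endothelial and mural markers, beside 19.2% of all tested genes. For adipocyte, lymphocyte and epithelial markers it was 0 of 7, 1 of 7 and 0 of 5. The erythroid gene Alas2 stood at 162 to 243 in TrkA-flox Th-cre libraries and 34.8 to 188 in wild-type libraries. Epithelial markers summed to 59.5 to 1770 in TrkA-flox Th-cre libraries and 61.4 to 6492 in wild-type libraries. With an epithelial score as a covariate, the log2 difference was −3.74 for Fosb (adjusted p = 0.0496) and −1.47 for Egr1 (0.033), while that of Egr3 no longer passed (0.0767). Xist, the RNA of the inactive X chromosome, was high in library 3 of TrkA-flox Th-cre and in libraries 3 and 4 of the wild type. With it as a covariate the adjusted p was 0.0495 for Fosb, 0.0304 for Egr1 and 0.0723 for Egr3. The part of the other cell types in these differences was not tested.

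The genes around the 7 in the same pathways did not pass in this comparison. None of 10 tested other AP-1 and bZIP factors, 32 other immediate early transcription factors, 17 feedback phosphatases and mRNA decay factors, 24 upstream kinases and factors, or 11 secreted and surface AP-1 and EGR targets was called by limma. At an unadjusted p below 0.05 the counts were 2, 9, 4, 3 and 4, beside 19.2% of all tested genes. Median log2 differences of these lists were 0.12, −0.02, −0.07, 0.02 and −0.53. Among 17 heat shock and stress chaperone genes, 1 rose, as did 1.34% of all tested genes. It was Trib3, a pseudokinase induced by the integrated stress response, with 61.6 ± 10.7 in TrkA-flox Th-cre libraries and 24.0 ± 6.10 in wild-type libraries (SD, n = 4 each, adjusted p = 0.0171). Of its 17 alternatives, 3 that left out a library lost the call.

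**Figure D2:**
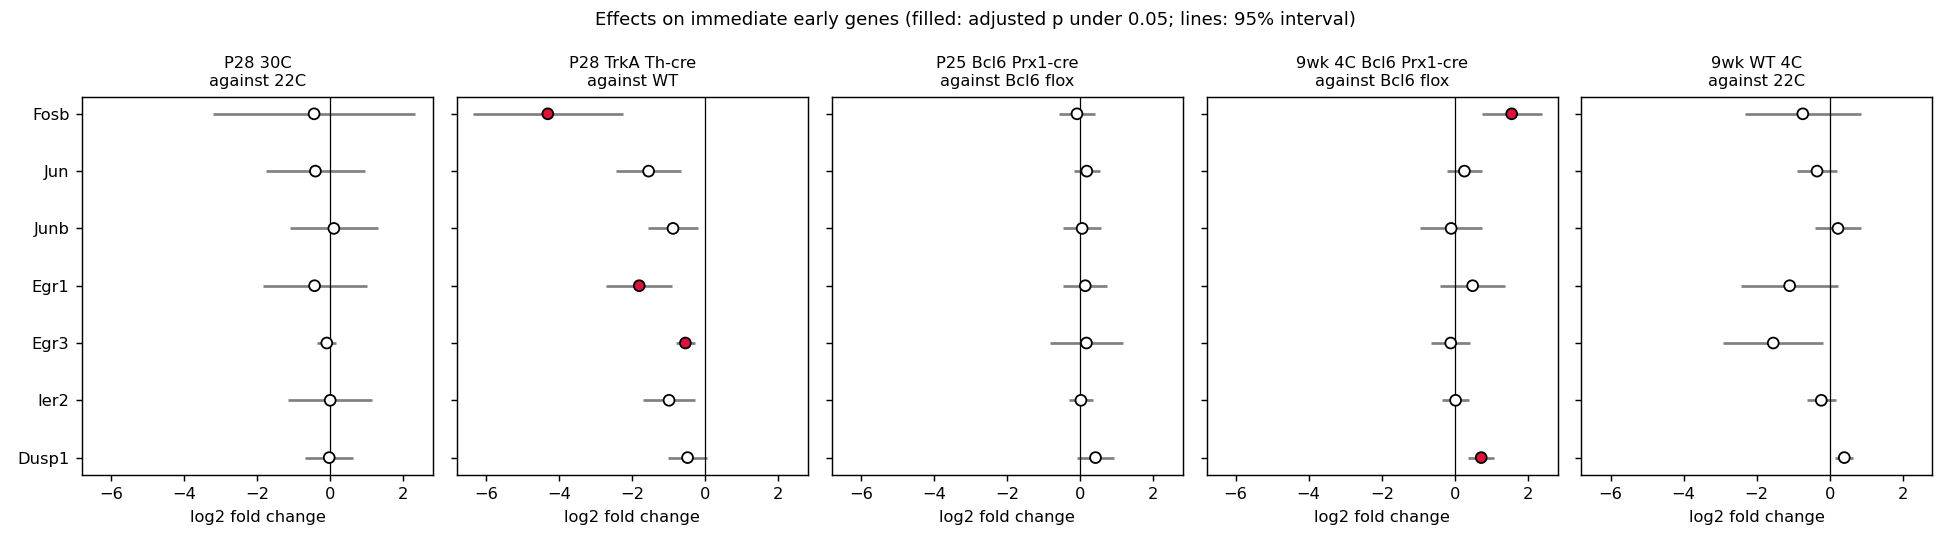
Log2 difference of each immediate early gene (vertical axis) in each of the 5 comparisons (panels), with lines for the 95% interval. Red filled points have an adjusted p below 0.05: Fosb, Egr1 and Egr3 in the TrkA-flox Th-cre comparison, and Fosb and Dusp1 between the 9-week Bcl6 groups.

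Housing at 30 C, against 22 C, asked whether thermoneutral warmth, which lowers sympathetic drive to fat, changes the depot. None of the 7 genes passed at P28, where 4.45% of 12283 tested genes did in either direction, and none had an unadjusted p below 0.05 by limma. Of all tested genes, 19.4% had such an unadjusted p. What stood out was the distance between libraries of 1 group. Fosb had 428, 302, 30.2 and 11.7 at 30 C, against 25.9, 95.9, 449 and 149 at 22 C. Libraries 1 and 2 were high and libraries 3 and 4 low at 30 C, and library 3 was the highest at 22 C, so that each group spanned nearly the whole range. The means were 193 ± 205 and 180 ± 186 (SD, n = 4 each), and the log2 difference was −0.44 ± 1.22 (adjusted p = 0.898).

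Jun had 973, 830, 279.5 and 212 at 30 C, against 324, 467, 1603 and 612 at 22 C, with a log2 difference of −0.41 ± 0.60 (adjusted p = 0.789). Junb had 571, 411, 196 and 110 at 30 C, against 143, 198, 471 and 289 at 22 C, with a difference of 0.10 ± 0.53 (adjusted p = 0.953). The order of the libraries was that of Fosb in both.

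Egr1 had 1218, 980.1, 286 and 210.4 at 30 C, against 376, 524, 1579 and 762 at 22 C, with a difference of −0.43 ± 0.63 (adjusted p = 0.787). Ier2 had 558, 346, 171 and 122 at 30 C, against 154.5, 193, 511 and 266 at 22 C, and its difference was −0.00 ± 0.51 (adjusted p = 0.999). Once more the same 3 libraries were the highest. The 95% intervals ran from −1.85 to 0.99 for Egr1 and from −1.15 to 1.14 for Ier2, so differences of more than a log2 unit could not be told from the spread.

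Dusp1 varied less, with 527, 442, 200.2 and 257 at 30 C, against 278, 323, 429 and 336 at 22 C, and an interval from −0.69 to 0.63. Egr3 was nearly level, with 137, 144, 185 and 135 at 30 C, against 159.5, 162, 171 and 147 at 22 C. Its difference of −0.10 ± 0.11 (adjusted p = 0.73) had an interval from −0.36 to 0.16. The groups of all 7 genes overlapped, while 12.9% of all tested genes had groups that did not.

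Several related genes did differ with temperature at this age. Of 32 tested other immediate early transcription factors, 4 were higher at 30 C and none lower, with a list median of 0.19 against 0.01 over all genes (1.29% of all tested genes were higher). Cebpd, a C/EBP factor of early adipogenesis, averaged 132 ± 22.3 at 30 C and 54.0 ± 6.59 at 22 C (SD, n = 4 each), a log2 difference of 1.27 (adjusted p = 0.00469). Nfkbia, the inhibitor of NF-κB, averaged 755 ± 28.4 at 30 C and 520 ± 57.3 at 22 C (adjusted p = 0.0095). Both genes kept their call under all 18 alternatives. Per1, a component of the circadian clock, averaged 128 ± 26.5 at 30 C and 69.8 ± 5.34 at 22 C (adjusted p = 0.0238). Sik1, a cAMP-induced kinase that restrains CREB coactivators, averaged 386 ± 30.9 at 30 C and 263 ± 49.2 at 22 C (adjusted p = 0.0419). Per1 lost its call in 6 and Sik1 in 10 of 18 alternatives.

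Among 12 other AP-1 and bZIP factors, 1 was higher, with a list median of 0.07. It was Jdp2, a repressor that dimerizes with Jun, at 121 ± 10.1 at 30 C and 80.9 ± 12.3 at 22 C (adjusted p = 0.0414, lost in 12 of 18 alternatives). Of 17 feedback genes, Tob2, which promotes mRNA deadenylation, was higher (875 ± 169 at 30 C and 605 ± 38.4 at 22 C, adjusted p = 0.049, lost in 10 of 18 alternatives). In the chaperone and stress list of 17, Ddit4, an inhibitor of mTORC1 signalling that glucocorticoids and stress induce, was higher at 585 ± 72.9 at 30 C and 281 ± 44.5 at 22 C (adjusted p = 0.00395, kept in all 18). Hspd1, a mitochondrial chaperonin, was lower at 1975 ± 79.4 at 30 C and 2570.4 ± 135 at 22 C (adjusted p = 0.012, lost in 1 of 18). No gene of the 25 tested upstream kinases and factors was called by limma, and 3 had an unadjusted p below 0.05. None of the 13 tested AP-1 and EGR targets was called, and 1 had such a p, beside 19.4% of all tested genes. Beside these, 2 of 9 macrophage markers, C1qb and Lyz2, were higher at 30 C (sums of 6751 to 8371 at 30 C and 4633 to 6340 at 22 C), and 4 of 6 tested thermogenic markers, Ucp1, Otop1, Cox7a1 and Cox8b, were lower (sums of 897 to 1694 at 30 C and 2596 to 4697 at 22 C). Muscle markers, none of 8 tested called by limma and 3 with an unadjusted p below 0.05, summed to 313 to 15850 at 30 C and 328.7 to 927 at 22 C. Their part in the differences was not tested.

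Adult cold exposure of wild-type mice, the second temperature contrast, called none of the 7 genes either (4.47% of 12118 tested genes passed, and 2.03% were higher at 4 C), and 2 of the 7 had an unadjusted p below 0.05 by limma, as did 23.8% of all tested genes. Those were Dusp1 and Egr3, whose groups did not overlap (17.3% of all tested genes had groups that did not overlap, in either direction). Dusp1 had 493.4, 580.5, 435 and 497 at 4 C, against 341.5, 390.0, 392 and 391 at 22 C, so every cold library was above every 22 C library. The means were 501.5 ± 59.9 and 379 ± 24.7 (SD, n = 4 each), with a log2 difference of 0.40 ± 0.11 (adjusted p = 0.0752). It passed with library weights (adjusted p = 0.0251), with Xist as a covariate (0.0362) and with the epithelial score as a covariate (0.0187).

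Egr3 had 13.7, 3.58, 20.8 and 29.2 at 4 C, against 32.0, 37.1, 78.2 and 31.2 at 22 C, all lower in the cold. The means were 16.8 ± 10.9 and 44.6 ± 22.5 (SD, n = 4 each), and the log2 difference of −1.55 ± 0.60 had an adjusted p of 0.161. It was −1.72 with the epithelial score as a covariate, where it passed (adjusted p = 0.0154), −0.98 with library weights (0.154) and −0.99 without library 2 of the 4 C group (0.238). Egr1 had 157, 94.3, 302 and 261 at 4 C, against 468, 1115, 272 and 174 at 22 C. The 2 highest libraries were at 22 C, but the other 2 of that group lay within the cold range (log2 difference −1.10 ± 0.58, adjusted p = 0.294). Fosb had 10.8, 14.3, 21.8 and 14.2 at 4 C, against 29.2, 107, 8.88 and 13.96 at 22 C, with library 2 of the 22 C group far above the rest (−0.74 ± 0.70, adjusted p = 0.571). Jun, Junb and Ier2 had log2 differences of −0.35 ± 0.24, 0.23 ± 0.27 and −0.23 ± 0.18, with adjusted p-values of 0.427, 0.669 and 0.48 and overlapping groups. Jun passed with the epithelial score as a covariate (−0.43, adjusted p = 0.0165).

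Of the related lists in adult cold, 1 of 32 other immediate early transcription factors passed, with a list median of −0.02. Beside the counts of list genes and markers given here, 4.47% of all tested genes passed in either direction and 2.03% were higher at 4 C. Klf9, a zinc finger factor that responds to glucocorticoid and thyroid hormone, averaged 1701 ± 194 at 4 C and 1070.3 ± 129 at 22 C (SD, n = 4 each, adjusted p = 0.0311). Map2k4, a kinase that activates JNK, was the member called among 25 upstream genes, at 683 ± 87.2 at 4 C and 469 ± 38.5 at 22 C (adjusted p = 0.0436). Ptgs2, the inducible cyclooxygenase, was the member called among 14 targets, at 20.9 ± 4.74 at 4 C and 3.67 ± 2.38 at 22 C (adjusted p = 0.046). Ptgs2 reached the value of 10 required for testing only in the 4 C libraries (14.7 to 26.1), against 0.955 to 6.57 at 22 C. These calls were lost in 7 of 18, 9 of 18 and 8 of 17 alternatives, mostly on leaving out a library. None of 10 other AP-1 factors, 16 feedback genes or 17 chaperone genes was called by limma, with 4, 4 and 4 at an unadjusted p below 0.05, beside 23.8% of all tested genes. The thermogenic marker sum, a check on the cold exposure, was 13070 to 57950 at 4 C and 1335 to 4552 at 22 C, with 2 of 7 markers up (Ucp1 and Elovl3). Schwann cell markers summed to 1585 to 1758 at 4 C and 3293 to 4259 at 22 C, with 3 of 8 down, Mbp among them. Endothelial and mural markers summed to 6160 to 7204 at 4 C and 9005 to 10420 at 22 C, with 2 of 8 tested down. Muscle markers, none of 9 called by limma and 0 with an unadjusted p below 0.05, summed to 23.2 to 31600 at 4 C and 101.7 to 46890 at 22 C. The part of these cell types in the differences was not tested.

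In the cold at 9 weeks, the libraries labelled Bcl6-flox Prx1-cre had more Fosb and Dusp1 than Bcl6-flox libraries. These were 2 of 7 genes, where 9.01% of 13496 tested genes were higher and 14.5% passed in either direction. Fosb had 37.5, 63.4, 79.9 and 76.1 in Bcl6-flox Prx1-cre libraries, against 19.0, 23.8, 11.3 and 33.0 in Bcl6-flox libraries. The groups did not overlap, with the lowest Bcl6-flox Prx1-cre library just above the highest Bcl6-flox library. The means were 64.2 ± 19.1 and 21.8 ± 9.09 (SD, n = 4 each), and the log2 difference was 1.56 ± 0.36 (adjusted p = 0.0239). Dusp1 had 2895, 2405, 2103 and 3129 in Bcl6-flox Prx1-cre libraries, against 1585, 1289, 1970 and 1538 in Bcl6-flox libraries. Again the groups were apart, with means of 2633 ± 465 and 1595 ± 281 and a log2 difference of 0.72 ± 0.16 (adjusted p = 0.0186). Among all tested genes, 12.2% had groups that were apart with the higher values in Bcl6-flox Prx1-cre fat.

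The other 5 genes did not pass. Jun had 1308, 1214, 1782 and 2494 in Bcl6-flox Prx1-cre libraries, against 1177, 1378, 1341 and 1568 in Bcl6-flox libraries (log2 difference 0.26 ± 0.21, adjusted p = 0.448). Junb had 348, 338, 699.8 and 636 in Bcl6-flox Prx1-cre libraries, against 574.5, 593, 261 and 781 in Bcl6-flox libraries (−0.10 ± 0.37, adjusted p = 0.879). Egr1 had 308, 459, 791 and 850.5 in Bcl6-flox Prx1-cre libraries, against 463, 346, 234 and 658 in Bcl6-flox libraries (0.49 ± 0.40, adjusted p = 0.444). All of these groups overlapped. Egr3 and Ier2 differed by −0.11 ± 0.24 and 0.02 ± 0.16.

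Leaving out Bcl6-flox library 1 or 2 ended both calls, leaving out any 1 of the 4 Bcl6-flox Prx1-cre libraries ended 1 of them, and leaving out Bcl6-flox library 3 or 4 ended neither. The adjusted p of Fosb without a library, where it was lost, was 0.0532 to 0.0689, and that of Dusp1 was 0.0518 to 0.059. The macrophage marker sum was 19230 to 32790 in Bcl6-flox Prx1-cre libraries and 10930 to 14790 in Bcl6-flox libraries, and 8 of 9 macrophage markers rose. Thermogenic markers summed to 11780 to 39830 in Bcl6-flox Prx1-cre libraries and 76860 to 120300 in Bcl6-flox libraries, and 6 of 7 fell. Skeletal muscle markers summed to 179.5 to 4408 in Bcl6-flox Prx1-cre libraries and 2269 to 495100 in Bcl6-flox libraries, with none of 9 called by limma and 5 with an unadjusted p below 0.05. Of all tested genes, 29.9% had an unadjusted p below 0.05 in this comparison. Epithelial markers summed to 7740 to 18260 in Bcl6-flox Prx1-cre libraries and 3362 to 37700 in Bcl6-flox libraries. With the epithelial score as a covariate, the log2 difference was 1.84 for Fosb (adjusted p = 0.00189) and 0.64 for Dusp1 (0.0142). The part of macrophages, muscle and thermogenic adipocytes in the differences was not tested.

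Of all tested genes, 14.5% passed between the 9-week Bcl6 groups in either direction. Of 33 tested other immediate early transcription factors, 5 rose and 2 fell, with a list median of 0.04. The 4 of these with the smallest p all rose. Klf6, a zinc finger factor, averaged 4691 ± 888 in Bcl6-flox Prx1-cre libraries and 2685 ± 142 in Bcl6-flox libraries (SD, n = 4 each, adjusted p = 0.00574). Nr4a2, an orphan nuclear receptor of the same family as Nr4a1, averaged 523 ± 164 in Bcl6-flox Prx1-cre libraries and 199 ± 27.0 in Bcl6-flox libraries (log2 difference 1.35, adjusted p = 0.00618). Both kept their call under all 17 alternatives. Nfkbia averaged 3598 ± 357 in Bcl6-flox Prx1-cre libraries and 2561 ± 367 in Bcl6-flox libraries (adjusted p = 0.0246, lost in 5 of 17), and Myc, the growth-promoting factor, 1181 ± 222 and 680.1 ± 169 (adjusted p = 0.0359, lost in 7 of 17). The other 3 called genes fall outside the naming rule and were named after their values were seen. They were Ccn1, a matricellular protein, which rose by 1.62 on the log2 scale (adjusted p = 0.0447), Cebpb, a C/EBP factor of adipogenesis, which fell by 0.78 (0.0389), and Plk2, a polo-like kinase, which fell by 2.43 (0.044).

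Among 11 other AP-1 and bZIP factors, Batf3, a partner of Jun known from dendritic cells, rose to 107 ± 7.87 in Bcl6-flox Prx1-cre libraries, against 66.3 ± 16.0 in Bcl6-flox libraries (adjusted p = 0.039, lost in 8 of 17). Of 14 AP-1 and EGR targets 3 rose and 1 fell, with a list median of 0.36. Ccl2, the monocyte chemoattractant, averaged 79.8 ± 27.4 in Bcl6-flox Prx1-cre libraries and 13.3 ± 5.24 in Bcl6-flox libraries (log2 difference 2.52, adjusted p = 0.00368). Thbs1, a matrix glycoprotein, averaged 5331 ± 4706 in Bcl6-flox Prx1-cre libraries, where it ran from 2014 to 12186, and 660.4 ± 132 in Bcl6-flox libraries (log2 difference 2.66, adjusted p = 0.0106). Ccl2 and Thbs1 were called in each of their 16 and 17 alternatives. Plau, the urokinase-type plasminogen activator, fell to 399 ± 72.3 in Bcl6-flox Prx1-cre libraries, against 618 ± 70.8 in Bcl6-flox libraries (adjusted p = 0.0188).

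In the chaperone and stress list 3 of 17 genes fell and 1 rose, with a list median of −0.19. Hsph1, a cytosolic chaperone, averaged 1014 ± 25.7 in Bcl6-flox Prx1-cre libraries and 1671 ± 111 in Bcl6-flox libraries (adjusted p = 0.000585, kept in all 17 alternatives). Hspd1 and Hspb1 fell by 0.38 and 0.51 on the log2 scale (adjusted p = 0.0306 and 0.0382, each lost in 8 of 17). Hmox1, the heme-degrading enzyme of macrophages and stressed cells, rose to 1241 ± 191 in Bcl6-flox Prx1-cre libraries, against 825 ± 89.6 in Bcl6-flox libraries (adjusted p = 0.0158). None of 17 feedback genes and 25 upstream genes was called by limma, with 5 and 3 at an unadjusted p below 0.05, beside 29.9% of all tested genes.

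At P25, with 8 libraries against 7, the same genotypes did not differ in any of the 7 genes by limma, and none had an unadjusted p below 0.05 (3.53% of 12738 tested genes passed, in either direction). Fosb ran from 81.5 through a median of 94.9 to 220 in Bcl6-flox Prx1-cre libraries, and from 80.8 through 112 to 192 in Bcl6-flox libraries, with a log2 difference of −0.08 ± 0.24 (adjusted p = 0.923). The lowest, median and highest Dusp1 values were 499.5, 820.3 and 1496 in Bcl6-flox Prx1-cre libraries and 486, 565 and 1054 in Bcl6-flox libraries (0.42 ± 0.24, adjusted p = 0.445). For Jun they were 672, 921.5 and 1243 in Bcl6-flox Prx1-cre libraries and 570, 809 and 1102 in Bcl6-flox libraries. Every gene's groups overlapped, while 1.3% of all tested genes had groups that did not.

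Junb ran from 125 to 419 in Bcl6-flox Prx1-cre libraries and from 99.1 to 295 in Bcl6-flox libraries. Egr1 ran from 332 to 1108 in Bcl6-flox Prx1-cre libraries and from 283 to 846 in Bcl6-flox libraries. Their differences were 0.06 ± 0.25 and 0.14 ± 0.28 on the log2 scale. Ier2 was the tightest of the 7, at 213 to 344 in Bcl6-flox Prx1-cre libraries and 172 to 382 in Bcl6-flox libraries. Its difference of 0.03 ± 0.16 had a 95% interval from −0.31 to 0.36. Egr3 was low, at 11.2 to 55.4 in Bcl6-flox Prx1-cre libraries and 6.83 to 65.0 in Bcl6-flox libraries (0.18 ± 0.47).

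A few related genes rose at P25, where 1.56% of all tested genes did. Thbs1 averaged 1210 ± 266 in Bcl6-flox Prx1-cre libraries (n = 8) and 525.7 ± 137 in Bcl6-flox libraries (n = 7), with an adjusted p of 0.000282 and a call in all 25 alternatives. It was the member called among 12 targets. Of 32 other immediate early transcription factors, 2 rose, Klf6 (1554 ± 190 in Bcl6-flox Prx1-cre and 1182 ± 167 in Bcl6-flox libraries, adjusted p = 0.0328) and Gadd45a, a growth arrest gene (204 ± 65.3 and 102 ± 38.3, adjusted p = 0.0359). Among 18 feedback genes, Dusp8, a phosphatase of JNK and p38, rose to 160.1 ± 54.3 in Bcl6-flox Prx1-cre libraries, against 84.4 ± 19.6 in Bcl6-flox libraries (adjusted p = 0.0388). Klf6, Gadd45a and Dusp8 lost their calls in 10, 10 and 12 of 25 alternatives. None of 11 other AP-1 factors, 24 upstream genes and 17 chaperone genes was called by limma, with 1 each at an unadjusted p below 0.05. Thermogenic markers summed to 2232 to 5311 in Bcl6-flox Prx1-cre libraries and 8234 to 21650 in Bcl6-flox libraries, with 5 of 7 down and Ppargc1a up. Muscle markers, none of 9 called by limma and 0 with an unadjusted p below 0.05, summed to 247 to 73490 in Bcl6-flox Prx1-cre libraries and 4442 to 35640 in Bcl6-flox libraries. Their part was not tested.

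The change in the Bcl6-flox Prx1-cre difference between 9 weeks at 4 C and P25 at 22 C was tested across 12487 genes, and none passed after adjustment, with 660 at an unadjusted p below 0.05 by limma's estimates. For Fosb the difference of the log2 differences was 1.64 ± 0.43 (SE, unadjusted p = 0.00891, adjusted p = 0.874), and for Dusp1 it was 0.30 ± 0.29 (adjusted p = 0.892). The higher Fosb in the cold adults is therefore not shown to differ from the P25 result. Xist also stood at 20650 to 28370 in every library of the 9-week Bcl6 comparison. At P25, on its own scale, it was 1.43 to 26.4 in columns lettered M and 4324 to 10470 in those lettered F. Age, temperature and this difference in Xist cannot be told apart in this contrast.

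Levels across all 9 groups can be set side by side only as CPM, the value scaled to a common library total, since the tables were normalized separately, and no test was made across tables. Egr3 had its highest levels at P28, with medians of 28.3 CPM at 30 C (range 26.9 to 38.4), 21.2 in TrkA-flox Th-cre libraries (18.7 to 23.7) and 30.7 in wild-type libraries at 22 C (27.7 to 34.6). Its medians in the other 6 groups were 1.36 to 4.33, and no library of those groups was above 11.2. The wild-type P28 groups overlapped each other, and TrkA-flox Th-cre lay below both. Among the other 6 groups, wild-type mice at 9 weeks and 22 C had the highest median, and each group overlapped its neighbours in the order. Lymphocyte marker sums at P28 were 3384 to 4160 at 30 C and 2914 to 3861 at 22 C in wild-type libraries. TrkA-flox Th-cre libraries had 1791 to 3760. At P25 they were 64.9 to 2527 in Bcl6-flox and 135 to 1562 in Bcl6-flox Prx1-cre libraries. At 9 weeks they were 87.6 to 1562 at 22 C and 29.7 to 184 in the 4 C groups. Each sum is on its own table's scale. The part of lymphocytes in the Egr3 levels was not tested, and age and table cannot be told apart.

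Fosb was also highest in wild-type P28 libraries, with medians of 33.1 at 30 C and 23.0 at 22 C, but with ranges from 2.34 to 87.4 and from 5.09 to 91.1. The P25 groups had Fosb medians of 9.22 in Bcl6-flox Prx1-cre and 10.2 in Bcl6-flox libraries, within those ranges. In TrkA-flox Th-cre and all 9-week groups the Fosb medians were 0.927 to 2.99. The TrkA-flox Th-cre libraries reached 3.04 CPM for Fosb, 45.9 for Jun and 55.2 for Egr1. The lowest wild-type P28 libraries at 30 C were below these, at 2.34, 42.2 and 41.9, so the ranges of those groups overlapped. The highest Dusp1 median, 110 CPM, was that of Bcl6-flox Prx1-cre at 9 weeks and 4 C (90.3 to 139). Its range overlapped those of Bcl6-flox Prx1-cre (48.0 to 147) and Bcl6-flox (41.7 to 99.8) at P25 and of wild-type P28 mice at 30 C (41.5 to 108), and lay above that of Bcl6-flox at 9 weeks and 4 C (57.2 to 74.4). Jun, Junb, Egr1 and Ier2 had overlapping ranges between most neighbouring groups in the order of medians, and their highest medians were those of wild-type P28 libraries, 111 for Jun, 61.2 for Junb, 127 for Egr1 and 52.1 for Ier2, each at 30 C.

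**Figure D3:**
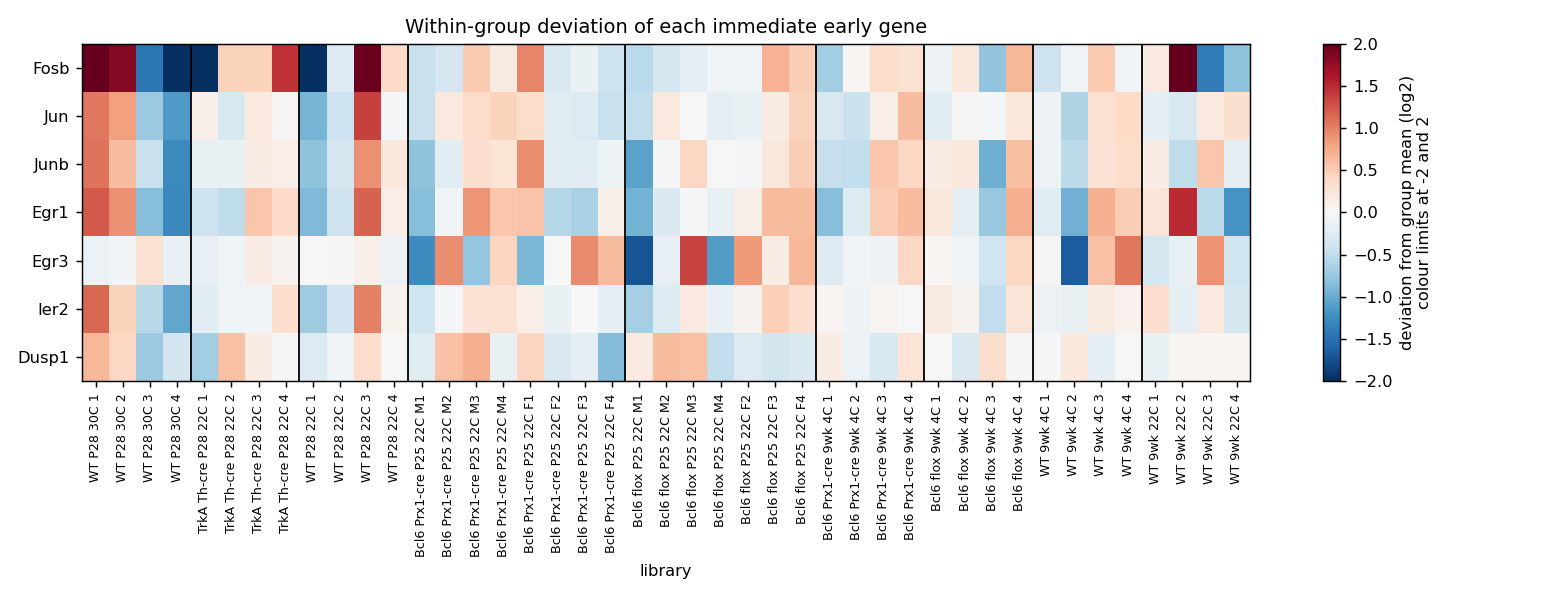
Deviation of each library's log2 value from its group mean (colour) for each immediate early gene (rows) in each of the 43 libraries (columns, by group). At P28, libraries 1 and 2 at 30 C and library 3 of the wild type at 22 C are above their group mean in 6, 6 and 7 of the 7 genes, while Egr3 stays pale.

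The spread between libraries of a group was set against that of other genes. For each gene, the pooled within-group SD of log2 values was ranked among genes with a mean within 0.5 log2 units of its own. In the P28 temperature table the SD was 2.12 for Fosb, larger than in 98.9% of 2030 genes of like level, whose median was 0.21. It was 1.09 for Egr1 (larger than 99.6%), 1.04 for Jun (99.6%), 0.92 for Junb (99.2%), 0.88 for Ier2 (99.1%) and 0.50 for Dusp1 (98.2%). Egr3 was the exception, with an SD of 0.16, larger than in 44.6% of like genes. In the TrkA table, which shares 4 of its libraries, 6 of the genes exceeded 96.3% or more, and Egr3 exceeded 9.59%.

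The other tables were calmer. At P25 the 7 genes exceeded 71.3% to 95.7% of genes of like level, with Ier2 the lowest and Egr1 the highest. Between the 9-week Bcl6 libraries the share ran from 31.6% for Egr3 to 95.9% for Egr1. Among 9-week wild-type libraries it ran from 24.6% for Dusp1 to 98.4% for Egr1. Egr1 exceeded at least 95.7% of genes of its level in all 5 tables.

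The genes deviated together at P28. Over the 12 P28 libraries, the 21 gene pairs had a median Pearson r of 0.828 between deviations from the group mean. The closest pair was Junb with Ier2 (r = 0.977), followed by Jun with Junb (0.963), while the pairs with Egr3 ran from −0.217 to 0.0833. The median r was 0.517 over the 15 P25 libraries, 0.641 over the 8 Bcl6 libraries of 9 weeks and −0.00245 over the 8 wild-type libraries of 9 weeks. These values describe the libraries, and depth and composition are shared by all genes of a library.

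The genes whose deviations were most like the mean of the 7 were sought among 11370 others tested in every table. Over the 43 libraries the 10 with the highest Pearson r were Myh14 (0.757), Mgat3 (0.749), Tgm3 (0.744), Fam83h (0.735), Tradd (0.734), Btg2 (0.73), Mafk (0.722), Hbegf (0.721), Pheta1 (0.719) and Sema4g (0.717), and the median over all those genes was −0.0203. Btg2, an antiproliferative immediate early gene, had 999.5, 962, 573 and 536 at 30 C, against 478, 568.5, 1209 and 669 at 22 C in the P28 libraries. Hbegf, a growth factor that binds the EGF receptor and a known AP-1 target, had 213, 234.0, 22.3 and 25.4 at 30 C, against 21.4, 55.8, 305.5 and 139.5 at 22 C. Their high libraries were libraries 1 and 2 at 30 C and library 3 at 22 C, those of Fosb.

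Myh14, a non-muscle myosin of epithelia, had 896.5, 555, 119 and 39.5 at 30 C, against 36.1, 214, 821 and 371 at 22 C. Tgm3, the transglutaminase of epidermis and hair follicle, had 811, 520.2, 45.3 and 14.2 at 30 C, against 10.6, 172, 790 and 239 at 22 C. Each of the 10 genes was chosen for following the immediate early genes over libraries that include these. Their shared high and low libraries follow from that choice, for Btg2 and Hbegf as for the epithelial genes. Outside the rule for the 10, and chosen after their values were seen, the inducible chaperone genes Hspa1a (r = 0.682, rank 19) and Hspa1b (0.603, rank 69), which are near-identical copies that reads cannot always tell apart, followed the same pattern. At P28, Hspa1a ran from 19.3 to 138 at 30 C and from 16.5 to 239 at 22 C.

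**Figure D4:**
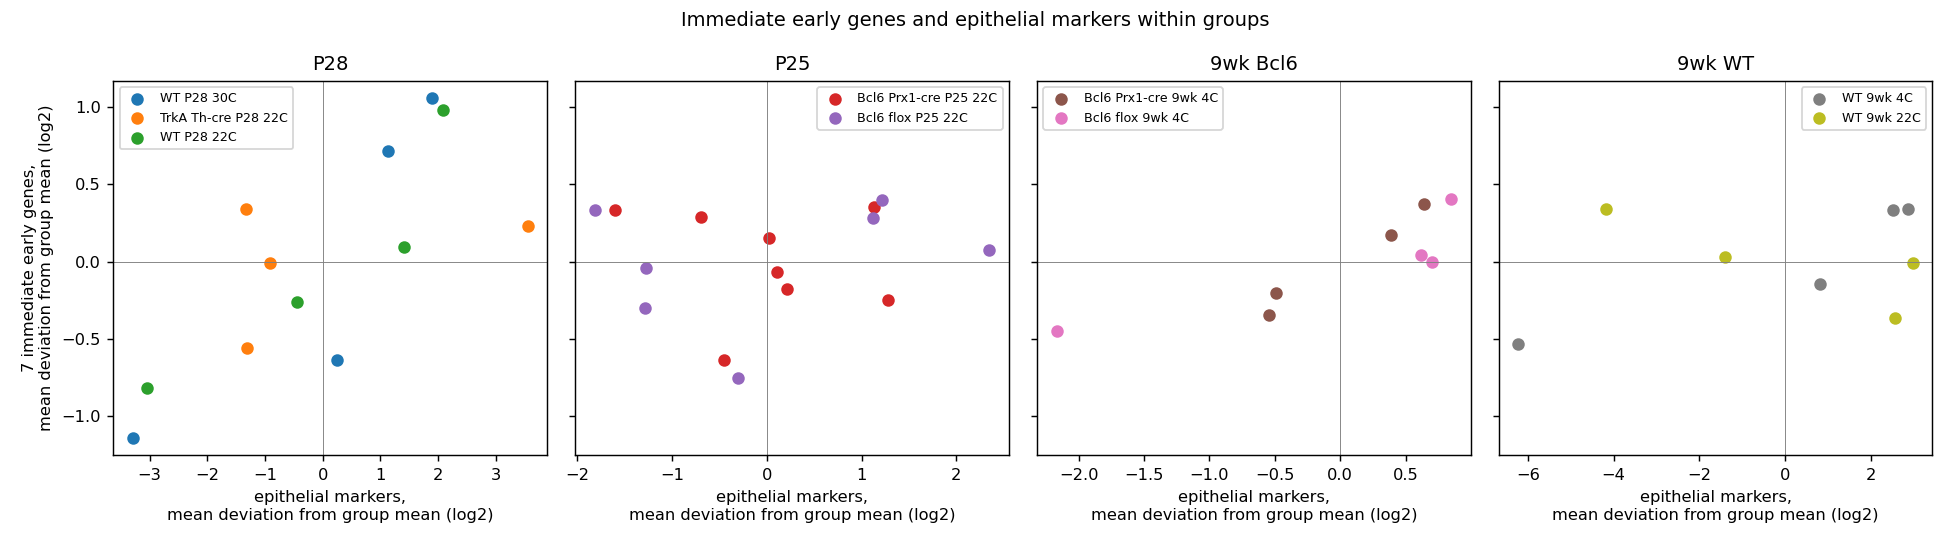
Deviation of the mean of the 7 immediate early genes (vertical axis, log2) against deviation of the epithelial marker score (horizontal axis, log2) from their group means, in each library of 4 sets of tables (panels). The points rise together at P28 and in the 9-week Bcl6 libraries and scatter at P25.

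Of 8 epithelial markers, 7 had a row, keratins and junction genes among them. Their sums at P28 were 9814, 6018, 1492 and 143 at 30 C, 87.8, 139, 1770 and 59.5 in TrkA-flox Th-cre fat, on the scale of its own table, and 69.6, 1382, 7328 and 3386 in wild-type fat at 22 C. In both wild-type P28 groups the rank order of the 4 libraries by this sum was that of the mean deviation of the immediate early genes, and no TrkA-flox Th-cre library held the same rank in both. At 9 weeks and 4 C the order was also the same in all 4 Bcl6-flox Prx1-cre libraries, with sums of 7740, 8361, 15040 and 18260, and in all 4 Bcl6-flox libraries, with sums of 29000, 28060, 3362 and 37700. By the mean of log2 values in place of the sum, 2 of those 4 Bcl6-flox libraries held the same rank.

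Among 9-week wild-type mice the order was the same in all 4 libraries at 4 C, with sums of 2530, 8.21, 8672 and 7040, and in none at 22 C, with sums of 255, 35.8, 4519 and 3377. At P25 the sums ran from 1714 to 5973 in Bcl6-flox Prx1-cre libraries and from 1684 to 6975 in Bcl6-flox libraries, and 1 of 8 and 0 of 7 libraries held the same rank by the sum, and 0 of 8 and 3 of 7 by the mean of log2 values. Over each set of libraries, Pearson's r between the deviation of the 7 genes and that of the epithelial log2 score was 0.75 at P28 (12 libraries), 0.102 at P25 (15), 0.852 in the 9-week Bcl6 table (8) and 0.31 in the 9-week wild-type table (8). Over all 43 libraries r was 0.455 for the epithelial score and −0.477 for the erythroid gene Alas2. It was 0.376 for the chaperone and stress list and −0.251 to 0.225 for the other marker lists. Xist was high in libraries 1, 2 and 3 at 30 C and in libraries 3 and 4 of the wild type at 22 C. The high wild-type libraries at P28 were thus among those with Xist. In TrkA-flox Th-cre fat the library with the highest mean deviation, library 4 (0.339), had a Xist value of 0. At 9 weeks, the wild-type libraries 3 and 4 with high Xist had the lowest mean deviations at 22 C (−0.0095 and −0.365) and the highest at 4 C (0.342 and 0.334). The part of epithelium, sex and handling in the spread was not tested.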

How the data were processed

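Libraries were made from flash-frozen tissue with a stranded mRNA kit, per the labels' protocols. The authors deposited normalized counts per gene (a signal scaled within each of 5 tables). Per the submitters' processing notes, kallisto, DESeq2 and the mm10 build were used, while their versions, the annotation and the settings are not given here by any source. Depth could be estimated only roughly. Symbols, positions and promoters came from RefSeq tables (GRCm38.p6), and 21 gene numbers had no symbol. Column names of the P25 table (a letter with a number) match no sample title and were mapped to their group only, and no column was left unmapped (0).

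Each comparison was fitted within its table by limma 3.58.1 (R 4.3.3) with a mean-variance trend on log2(value + 1), over genes that reached 10 in a number of libraries no lower than the size of the smaller group. All 7 genes passed this filter in all 5 tables. Adjusted p-values follow Benjamini and Hochberg over every tested gene of the table, and calls are those below 0.05. The scripts (Python 3.11.15, pandas 2.3.3, matplotlib 3.10.9) were tested on simulated data. Named were the listed genes, at most the 4 called genes of smallest p per related list and comparison, and the 10 genes most like the listed ones. The genes and lists were chosen with earlier results of these data known. Alternatives changed the scaling, pseudocount, filter, library weights, sex covariate, libraries and block, and 2, the epithelial score as a covariate and the P25 column name as a block, were added after the data were seen. Epithelial and other marker scores are means of log2(value + 1) over the markers. No label says that same-numbered samples belong together, and in no table did every same-numbered pair deviate together (r above 0.1), so the tests are unpaired. A few genes that these rules would name are not reported here.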

Additional observations from a re-analysis of the deposited data

Results flagged for a closer look

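Of 63 combinations of an immediate early gene and a group of 4 to 8 samples, 2 held a library far from the rest by Dixon's criterion. Chance gives about 1 in 20, so these 2 are no more than chance would give. Egr3 stood at 78.2 in library 3 of the 9-week wild-type mice at 22 C, where the gap to the next library was 0.875 of the group's range. Dusp1 stood at 341.5 in library 1 of the same group, below the other 3, with a gap of 0.962 of the range. In both genes that group is the one set against the cold libraries, and without library 3 the Egr3 values at 22 C were 32.0, 37.1 and 31.2.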

How the results depend on the processing

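The number of genes past the threshold moved by more than 1.5 times under some settings. With library weights it was 905 at P28 between temperatures, 957 in the TrkA comparison, 4777 in the 9-week Bcl6 comparison and 1872 in the 9-week wild-type comparison. With the sample number as a replicate block it was 236, 1171 and 1666 in the P28 temperature, 9-week Bcl6 and 9-week wild-type comparisons. In the 9-week wild-type comparison it was 356 with no filter, 2226 with Xist as a covariate and 2882 with the epithelial score, and that score gave 3278 in the 9-week Bcl6 comparison. Leaving out each library gave 176 to 714, 93 to 870, 288 to 666, 1055 to 3548 and 36 to 356 genes in the P28 temperature, TrkA, P25, 9-week Bcl6 and 9-week wild-type comparisons.

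Of the 7 immediate early genes, the TrkA comparison called 1 after quantile normalization and 0 with no filter. The 9-week Bcl6 comparison called 1 with a mean of at least 50, where Fosb and Egr3 were not tested, and 0 with the replicate block. The 9-week wild-type comparison called 1 with library weights, 1 with Xist and 3 with the epithelial score (Dusp1, Egr3 and Jun). Leaving out a library gave 0 to 4 in the TrkA and 0 to 2 in the 9-week Bcl6 comparison, and 0 to 0 in the other 3. The correlation of same-numbered libraries' deviations was −0.662 to −0.0213 at P28 between temperatures, −0.14 to 0.207 in the TrkA table, −0.346 to 0.161 in the 9-week Bcl6 table and −0.262 to 0.768 in the 9-week wild-type table. It was above 0.1 in 3 of 4 pairs in each of the TrkA and 9-week wild-type tables, and in all pairs of no table. With the block, the TrkA comparison again called 3, but Egr3 no longer passed (adjusted p = 0.0837) and Jun did (0.0452), beside Fosb (0.00547) and Egr1 (0.00493). At P25 only column names carry a letter and a number. As a block they gave 731 genes, 0 of the 7, and −0.075 for Junb, whose sign changed, with pair correlations of −0.216 to 0.616. The cause of these changes was not tested.

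Differences near 0 changed sign. At P28 between temperatures these were Fosb (0.021) and Dusp1 (0.10) with library weights, Ier2 with trimmed mean of M-values scaling (0.00168), quantile normalization (0.00017) and weights (0.23), and Junb with Xist (−0.24) and the epithelial score (−0.27). At P25 they were Egr3 with weights (−0.00145) and Ier2 after quantile normalization (−0.00965), and at 9 weeks Ier2 with weights (−0.10), Egr3 (0.034) and Junb (0.25) with the epithelial score. Without a library, the P28 temperature differences ran from −0.25 to 0.21 for Dusp1, −0.84 to 0.00203 for Egr1, −1.22 to 0.47 for Fosb, −0.38 to 0.35 for Ier2, −0.76 to 0.049 for Jun and −0.27 to 0.52 for Junb. At P25 they ran from −0.012 to 0.27 for Egr1, −0.11 to 0.40 for Egr3, −0.22 to 0.033 for Fosb, −0.086 to 0.10 for Ier2 and −0.12 to 0.17 for Junb. In the 9-week Bcl6 comparison they ran from −0.25 to 0.025 for Egr3, −0.15 to 0.11 for Ier2 and −0.43 to 0.10 for Junb. Neither rescaling moved the median of all genes by more than 0.1 in any table, and depth was lowest at P28.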
